A study of Mus musculus with 3 samples.

Results

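Large clusters of H3K27ac peaks lying away from genes were examined in MIN6, a line derived from a mouse insulinoma that serves as a model of the pancreatic beta cell. The members were chosen by a rule applied to the wild-type peak list. Peaks more than 2.5 kb from both ends of every protein-coding gene, on chromosomes 1 to 19 and X, were stitched where they lay within 12500 bp of each other, and clusters of 3 or more peaks were ranked by their summed peak bases. The top 300 of 2225 such clusters were kept, and they held 1864 of the 24585 wild-type distal peaks. The 3 libraries came from a homozygous Arid1a knockout clone, a heterozygous Arid1a knockout clone and a wild-type clone, 1 library each. Arid1a encodes a subunit of the SWI/SNF complex, which moves nucleosomes with the energy of ATP. Per the labels, the cells were first made to express Cas9 from a lentivirus and then received a lentivirus with a guide RNA against Arid1a, and clones grown from single cells were sorted into the 3 genotypes by PCR and Western blot. The wild-type clone went through the same 2 infections. Each genotype thus rests on 1 clone and 1 library, no comparison below carries a test or a p-value, and a difference between genotypes cannot be told apart from a difference between clones or libraries.

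H3K27ac, acetylation of lysine 27 of histone H3, is placed by the acetyltransferases p300 and CBP and marks active promoters and enhancers. A super-enhancer is a stretch of closely spaced enhancers with much of this mark or of bound Mediator and master transcription factors, often near genes that define the cell type. In beta cells, such stretches are known near genes for islet transcription factors and for hormone secretion. Super-enhancers are usually ranked by read signal, and the deposited lists hold peaks and not signal, so the ranking here used bases. The median wild-type peak in a cluster was 564.5 bp wide, against 433.0 bp for the other wild-type distal peaks, and its −log10 q, a measure of how unlikely the peak is under the local background, was 19.46 against 13.16. A ranking by bases favours wide peaks, so these values follow from the rule in part. The fold enrichment of the cluster peaks over that background, the authors' own value for each peak, had a median of 4.306 against 5.276 for the other distal peaks. The deposited values do not show whether the clusters are super-enhancers, and the members are called large distal clusters.

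The labelled cell type was checked at gene ends. Ins1 and Ins2, the insulin genes, had a peak within 1 kb of a gene end in each library. Of 38 genes for insulin, granules and secretion, 27 had such a peak in the homozygous knockout, 28 in the heterozygous knockout and 31 in the wild type, while of 15 acinar markers 1 did in the homozygous knockout, 3 in the heterozygous knockout and 1 in the wild type. In the same order, 4, 1 and 2 of 10 alpha cell markers did, and 6, 5 and 5 of 12 duct markers. Mesenchymal, immune and endothelial markers gave 4, 6 and 6 of 20, and neuronal genes 12, 16 and 15 of 25. Housekeeping genes gave 14 of 15 in each library, a higher share than the secretory list, so such peaks alone do not identify the cell type. Of 30 beta cell transcription factors, 19 did in the homozygous knockout, 15 in the heterozygous knockout and 19 in the wild type. Over all protein-coding genes the shares were 49.13% in the homozygous knockout, 48.76% in the heterozygous knockout and 52.11% in the wild type, so the secretory list stood above them in every library and the transcription factors (63.33%, 50.0% and 63.33% in the same libraries) were close to them in the heterozygous knockout. H3K27ac at Arid1a, present at its gene ends in all 3 libraries, does not report whether the gene is cut, so the genotypes rest on the labels. Peak names in the wild-type list carry the tag GAL4, which no source used here explains. The lists differed in length, with 34298 peaks in the homozygous knockout, 31365 in the heterozygous knockout and 41490 in the wild type. Their distal peaks covered 9.587 Mb in the homozygous knockout, 7.986 Mb in the heterozygous knockout and 13.09 Mb in the wild type, so that the homozygous list reached 73.23% and the heterozygous list 60.99% of the wild-type distal bases before any cluster was chosen. The sources used here do not state how many reads each library had, and in counts against the wild type the depth of a library and its genotype cannot be told apart.

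Some clusters held the start of a transcript. RefSeq start windows, 300 bases each with 250 before and 50 after an annotated start, lay in 104 of the 300 clusters, and 50 windows of 37 genes sat wholly inside a wild-type distal peak. Of these genes, 20 were protein-coding, with an annotated start away from the ends of the gene, and 17 were lncRNA genes. Both knockouts had a peak over 40 of the 50 windows, the homozygous knockout alone over 2, the heterozygous knockout alone over 6, and neither over 2. The windows are printed because they are the stretches of the clusters whose sequence is in the reference used here, and those shown stand for each of these outcomes. They were picked after their values were seen. Capitals mark CpG pairs, the C followed by G that is methylated or kept free of methylation at promoters. The windows are, on GRCm38 (mm10), Esrrg at chr1:187651508-187651807 on the plus strand, 9030622O22Rik at chr2:147985362-147985661 on the minus strand, Mcf2l at chr8:12949173-12949472 on the plus strand, Gm39084 at chr7:123098189-123098488 on the minus strand, Gm33494 at chr6:38032409-38032708 on the plus strand and Nebl at chr2:17731085-17731384 on the minus strand.
Esrrg: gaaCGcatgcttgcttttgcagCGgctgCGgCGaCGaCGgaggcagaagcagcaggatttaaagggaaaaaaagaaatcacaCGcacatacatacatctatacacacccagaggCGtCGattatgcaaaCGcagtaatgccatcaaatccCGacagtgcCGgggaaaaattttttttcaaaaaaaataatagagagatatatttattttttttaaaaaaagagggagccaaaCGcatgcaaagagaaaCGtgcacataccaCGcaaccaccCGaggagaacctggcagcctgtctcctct
9030622O22Rik: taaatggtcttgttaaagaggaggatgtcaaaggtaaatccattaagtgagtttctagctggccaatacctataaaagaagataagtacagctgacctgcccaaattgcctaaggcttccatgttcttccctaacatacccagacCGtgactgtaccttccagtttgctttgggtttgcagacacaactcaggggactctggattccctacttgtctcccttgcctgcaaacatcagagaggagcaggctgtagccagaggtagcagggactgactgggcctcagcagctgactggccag
Mcf2l: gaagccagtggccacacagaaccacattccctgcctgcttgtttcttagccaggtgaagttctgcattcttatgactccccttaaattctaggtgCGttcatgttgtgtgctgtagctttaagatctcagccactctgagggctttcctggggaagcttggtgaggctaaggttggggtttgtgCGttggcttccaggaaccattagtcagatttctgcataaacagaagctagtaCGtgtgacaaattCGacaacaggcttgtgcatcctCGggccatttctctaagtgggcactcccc
Gm39084: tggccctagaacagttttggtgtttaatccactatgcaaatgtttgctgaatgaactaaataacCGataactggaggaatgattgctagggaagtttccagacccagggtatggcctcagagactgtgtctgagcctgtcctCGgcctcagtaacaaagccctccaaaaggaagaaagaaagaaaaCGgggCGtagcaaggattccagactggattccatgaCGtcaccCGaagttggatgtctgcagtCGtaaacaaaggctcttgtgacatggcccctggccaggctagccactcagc
Gm33494: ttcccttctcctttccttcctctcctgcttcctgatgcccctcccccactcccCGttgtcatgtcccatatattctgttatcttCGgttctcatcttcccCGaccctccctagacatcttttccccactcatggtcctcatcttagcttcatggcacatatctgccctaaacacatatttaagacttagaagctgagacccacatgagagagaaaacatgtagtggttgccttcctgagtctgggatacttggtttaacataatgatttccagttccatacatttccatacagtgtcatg
Nebl: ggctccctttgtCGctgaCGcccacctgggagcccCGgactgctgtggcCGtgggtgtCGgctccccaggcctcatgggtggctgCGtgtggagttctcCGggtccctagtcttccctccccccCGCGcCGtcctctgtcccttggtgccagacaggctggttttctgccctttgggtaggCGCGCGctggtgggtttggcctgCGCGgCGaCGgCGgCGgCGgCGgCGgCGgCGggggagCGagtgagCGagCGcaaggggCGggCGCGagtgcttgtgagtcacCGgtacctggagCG

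The Esrrg window was covered over all 300 bases in the homozygous knockout, the heterozygous knockout and the wild type, and held 16 CpG pairs. Esrrg encodes an orphan nuclear receptor known for a role in beta cell maturation. The 9030622O22Rik window, from an lncRNA gene in the cluster nearest to Foxa2, was covered over 171 bases in the homozygous knockout, 237 in the heterozygous knockout and 300 in the wild type, and held 1 CpG pair. The Mcf2l window was covered over 109 bases in the homozygous knockout, 0 in the heterozygous knockout and 300 in the wild type, with 5 CpG pairs. The Gm39084 window, from an lncRNA gene inside the cluster at Tnrc6a, was covered over 0 bases in the homozygous knockout, 300 in the heterozygous knockout and 300 in the wild type, with 7 CpG pairs. Those of Gm33494 and Nebl were covered in the wild type only, with 3 and 32 CpG pairs. Over the 40 windows with a peak in both knockouts the median was 20 CpG pairs (range 1 to 47), against 5.5 over the 2 with a peak in the homozygous knockout alone, 8.0 over the 6 with a peak in the heterozygous knockout alone and 17.5 over the 2 with neither. In the wild-type distal peaks outside the clusters the same medians were 18 over 361 windows with a peak in both knockouts, 10.0 over 28 with a peak in the homozygous knockout alone, 12.0 over 33 with a peak in the heterozygous knockout alone and 8.0 over 33 with neither. The median of all 32851 windows of the table was 7.0. Outside the clusters, windows kept in both knockouts thus had the highest median of CpG pairs. Inside them that group also had the highest median, but the rest of the order differed. Windows with a peak in neither knockout ranked second inside, at 17.5, and lowest outside, at 8.0. The 40 windows came from 27 genes, some with nearly the same window counted more than once. The other groups there held 2 to 6 windows, too few to show a difference. Nebl and 9030622O22Rik show that single windows went the other way. Wild-type peaks over a start window were also stronger, with a median −log10 q of 33 against 19 for the other cluster peaks, and the part of peak strength in this pattern was not tested.

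The 300 clusters spanned 4019 to 64239 bp, with a median of 20920 bp. Their wild-type peaks covered 3044 to 9199 bases (median 3825), in 3 to 24 peaks (median 6) separated by gaps with a median of 1100 bp. A gene body overlapped 186 clusters, of which 164 lay wholly inside 1, and the other 114 were a median of 31230 bp from the nearest gene. The gene table has no exons, so exon, intron and UTR positions are not known here. Nearest genes numbered 273, and 275 clusters kept the same gene when the nearest gene end to the cluster centre was used instead. Nearness does not show that a cluster acts on a gene. The cut at 300 fell on a smooth slope. The last clusters inside it, nearest to Stx16 and Dennd4c, held 2467 and 2320 bases in the homozygous knockout, 2081 and 1937 in the heterozygous knockout and 3050 and 3044 in the wild type. The first outside it, nearest to Pld1 and Macroh2a1, held 0 and 0 in the homozygous knockout, 285 and 0 in the heterozygous knockout and 3043 and 3040 in the wild type. Where the curve of summed bases over all 13727 stitched groups, single peaks included, reached a slope of 1 after both axes were scaled to the same length, the value was 1950 bases, and 965 clusters of 3 or more peaks lay above it.

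The 10 clusters with the most wild-type bases were chosen on that value, which is given as a description. The first, chr9:3000007-3038308, lies at the assembled start of chromosome 9, 296923 bp from its nearest gene Alkbh8, and covered 8539 bases in the homozygous knockout, 7294 in the heterozygous knockout and 9199 in the wild type. This stretch is known for repeated sequence. The second lies inside Tns3, a tensin that links integrin adhesions to actin, at chr11:8445945-8504463, and covered 6733 bases in the homozygous knockout, 3624 in the heterozygous knockout and 8639 in the wild type. The cluster near Lrrc74a covered 7789 bases in the homozygous knockout, 6445 in the heterozygous knockout and 8272 in the wild type. Rbfox3, the splicing factor known as the neuronal marker NeuN, holds a cluster at chr11:118709959-118769561 with 2208 bases in the homozygous knockout, 1244 in the heterozygous knockout and 8141 in the wild type. Both knockouts held under 50% of the wild-type bases there, the lowest shares among these 10. At Chd2, a chromodomain helicase, the cluster at chr7:73578282-73619327 held 7901 bases in the homozygous knockout, 7536 in the heterozygous knockout and 7619 in the wild type, with 9 peaks in each library. Of the rest, those at Gse1, Gm40363, Celf4, Vegfa and C2cd4b covered 4550 to 6356 bases in the homozygous knockout, 4143 to 5587 in the heterozygous knockout and 7013 to 8078 in the wild type. Vegfa encodes the angiogenic growth factor, Celf4 an RNA-binding protein, and C2cd4b lies at a locus linked to type 2 diabetes in humans.

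**Figure D1:**
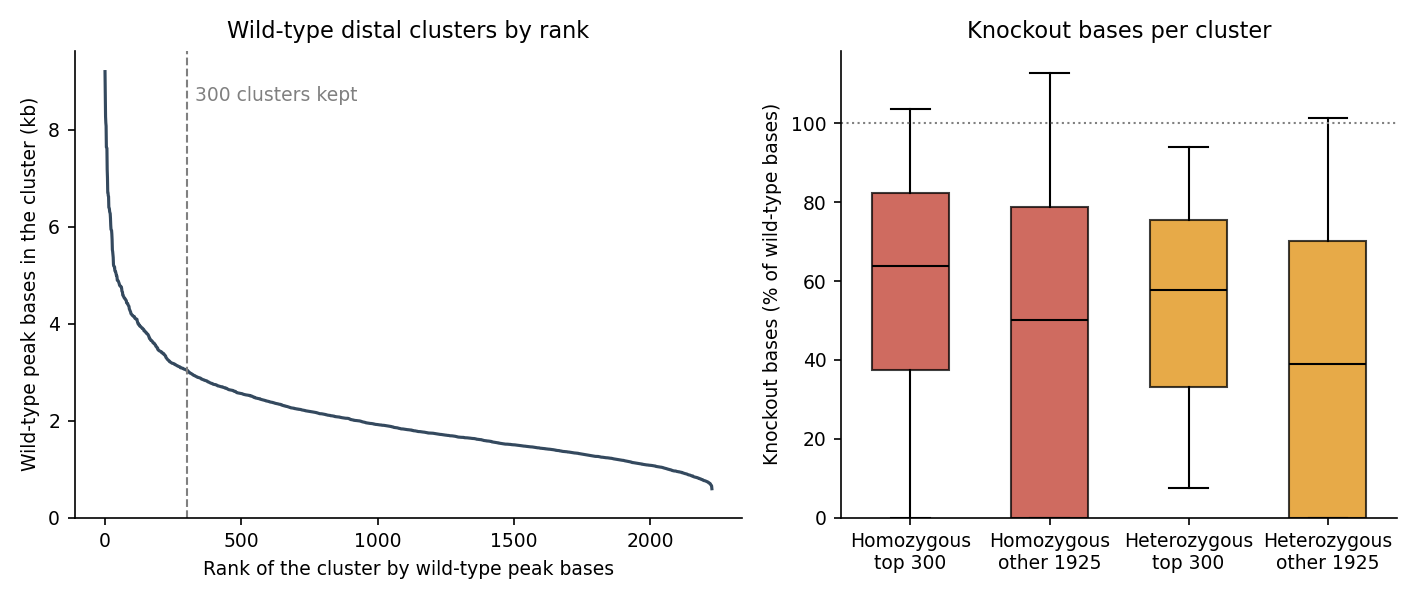
Left, wild-type peak bases (kb) of the 2225 distal clusters by rank, with the 300 kept left of the dashed line. Right, knockout bases per cluster as a percentage of wild-type bases for the 300 clusters and all others of 3 or more peaks, with boxes from the lower to the upper quartile, a line at the median and whiskers at the 5th and 95th percentiles; the medians were 63.84% and 57.72% for the homozygous and heterozygous knockout in the 300 clusters.

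Summed over the 300 clusters, peaks covered 751849 bases in the homozygous knockout, 685383 in the heterozygous knockout and 1231188 in the wild type. The homozygous knockout thus held 61.07% and the heterozygous knockout 55.67% of the wild-type bases, against 50.77% and 43.68% in the other clusters of 3 or more peaks. In bulk chromatin, fewer cells with the mark and less of it per cell cannot be told apart. Since the clusters were selected on wild-type bases, values below 100% are in part fixed by that choice. When the same rule picked 300 clusters in the homozygous list, the homozygous knockout held 1047587 bases and the wild type 833467, or 79.56% of the homozygous value. When it picked them in the heterozygous list, the heterozygous knockout held 961955 bases and the wild type 848233, or 88.18% of the heterozygous value. Each list therefore held more bases than the others in the clusters picked from it, and the direction against the wild type turned with the list used. With clusters picked from the merged peaks of all 3 lists, the homozygous knockout held 978384 bases (83.56% of the wild-type value), the heterozygous knockout 873345 (74.59%) and the wild type 1170810. The 300 clusters picked in the wild type took 7.842% of homozygous distal bases, 8.583% of heterozygous and 9.404% of wild-type distal bases. That choice favours this order. The top 300 picked from each list itself took 10.93% in the homozygous knockout, 12.05% in the heterozygous knockout and 9.404% in the wild type.

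Single clusters varied widely around these sums. Both knockouts are set against the same wild-type list, so their shares stand side by side and do not back each other up. The homozygous share of the wild-type bases had quartiles of 37.53% and 82.2%, and the heterozygous share 33.2% and 75.58%. The homozygous knockout held under 50% of the wild-type bases in 99 of the 300 clusters (33%, exact binomial 95% interval 27.7% to 38.64%), against 49.97% of the other clusters and 47.7% of all 2225. The heterozygous knockout did so in 126 of 300 (42%, interval 36.35% to 47.81%), against 58.49% of the other clusters and 56.3% of all. No homozygous base was found in 18 clusters (6.0%, where all clusters gave 23.2%) and no heterozygous base in 13 (4.333%, where all gave 26.3%). Homozygous bases reached or passed the wild-type value in 19 clusters (6.333%, with 9.89% of all), and heterozygous bases in 5 (1.667%, with 4.85% of all). All 6 shares were below the background. The smaller clusters have fewer peaks each. The intervals cover counting error only.

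The clusters with the lowest homozygous share held no homozygous peak at all. Mapk4, an atypical MAP kinase, holds a cluster at chr18:73989189-74034678 with 0 bases in the homozygous knockout, 3643 in the heterozygous knockout and 4897 in the wild type. The cluster nearest to Fam76b, at chr9:13898093-13933097, held 0 bases in the homozygous knockout, 0 in the heterozygous knockout and 4424 in the wild type. Rybp, a subunit of Polycomb repressive complex 1, had a cluster 144451 bp away with 0 bases in the homozygous knockout, 1391 in the heterozygous knockout and 4157 in the wild type. The clusters at Igsf21, Ttc39b, Galnt18, Fam174b and Hepacam2 likewise held 0 homozygous bases, with 225 to 721 in the heterozygous knockout and 3703 to 4576 in the wild type. Among the clusters without a heterozygous peak, the one in Btbd9 at chr17:30294927-30307879 held 3037 bases in the homozygous knockout, 0 in the heterozygous knockout and 3199 in the wild type. That in Dnaic1, which encodes an axonemal dynein chain of motile cilia, held 2967 bases in the homozygous knockout, 0 in the heterozygous knockout and 4493 in the wild type. That in Btbd11 held 2228 bases in the homozygous knockout, 0 in the heterozygous knockout and 3954 in the wild type. Actr3b and Svopl had 0 bases in both knockouts, against 3562 and 3186 in the wild type. Ntrk3 and Det1 both lie on chromosome 7. Their clusters had 869 and 1022 bases in the homozygous knockout, 0 in the heterozygous knockout, and 3798 and 3513 in the wild type.

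At the other end, knockout bases passed those of the wild type. Knockout peaks crossing the edge of a gene-end zone count in part, while such wild-type peaks are left out, which can raise the knockout values. Gene ends lie in the spans at Park7 and Bbc3, and the size of this effect was not measured. Park7, whose product DJ-1 protects cells against oxidative stress, overlaps a cluster at chr4:150901798-150915915 with 3880 bases in the homozygous knockout, 1018 in the heterozygous knockout and 3062 in the wild type. Rbm47, an RNA-binding protein, had 4704 bases in the homozygous knockout, 2465 in the heterozygous knockout and 3746 in the wild type. Nfasc, the cell adhesion protein neurofascin, had 4123 bases in the homozygous knockout, 1271 in the heterozygous knockout and 3393 in the wild type. At Bbc3, which encodes the pro-apoptotic protein PUMA, the homozygous knockout held 4190 bases, the heterozygous knockout 3477 and the wild type 3521. Trappc9, Pip5k1b and Tex35 had 3616 to 4078 bases in the homozygous knockout, 472 to 2804 in the heterozygous knockout and 3139 to 3604 in the wild type. The highest heterozygous share was at Tomm20, a receptor of mitochondrial protein import, whose cluster 34939 bp away held 904 bases in the homozygous knockout, 4016 in the heterozygous knockout and 3179 in the wild type. Crybb2, a lens crystallin gene beside a cluster in multi-copy sequence, had 2496 bases in the homozygous knockout, 5071 in the heterozygous knockout and 4801 in the wild type. Zfp516, a zinc finger gene, had 3188 bases in the homozygous knockout, 3491 in the heterozygous knockout and 3386 in the wild type. The cluster near Ptma, the gene of prothymosin alpha, held 3900 bases in the homozygous knockout, 3724 in the heterozygous knockout and 3711 in the wild type. That in Mast4, a kinase gene, held 3805 bases in the homozygous knockout, 4071 in the heterozygous knockout and 4000 in the wild type. At Ptma and Mast4 all 3 libraries lay close to each other, whereas Park7, Nfasc and Tex35 were high in the homozygous knockout and low in the heterozygous one.

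The comparison of the homozygous with the heterozygous knockout did not enter the choice of clusters. Homozygous bases were higher in 181 of the 300 clusters and heterozygous bases in 116. The numbers were 986 and 635 in the other 1925 clusters and 1167 and 751 in all 2225. The homozygous sum was 1.097 times the heterozygous sum, and in the other clusters this ratio was 1.162. All distal peaks covered 9.587 Mb in the homozygous list and 7.986 Mb in the heterozygous list. Depth and genotype cannot be told apart in this comparison either. The homozygous knockout held at least 2 times the heterozygous bases in 46 clusters (15.33%, interval 11.45% to 19.92%), against 24.1% of the other clusters and 22.9% of all. The heterozygous knockout held at least 2 times the homozygous bases in 43 (14.33%, interval 10.57% to 18.82%), against 15.69% of the other clusters and 15.5% of all. The near equal numbers held under most alternatives and moved apart under others. With clusters ranked by bases times fold enrichment the homozygous knockout was higher by at least 2 times in 14.33% and the heterozygous in 13.33%. With lists of equal length the values were 13.33% and 14.33%. Both values also stayed inside the intervals above with stitching at 5 kb, a larger gene-end distance and the top 100. The same held for bases inside wild-type peaks only and without clusters in multi-copy sequence. With stitching at 25 kb the homozygous knockout was higher by at least 2 times in 17.0% and the heterozygous in 8.667%, with clusters from the merged lists in 17.0% and 10.0%, and with peaks of −log10 q of at least 10 in 21.67% and 13.67%. After Tex35, the largest excess in the homozygous knockout was in Cdh4, the gene of R-cadherin, at chr2:179537245-179573077, with 4102 bases in the homozygous knockout, 678 in the heterozygous knockout and 4259 in the wild type. Tns3 followed, and then Trio, with 5414 bases in the homozygous knockout, 2323 in the heterozygous knockout and 5181 in the wild type. The largest excess in the heterozygous knockout was that at Mapk4. Tnrc6a, a scaffold of microRNA silencing, came next with 1087 bases in the homozygous knockout, 4311 in the heterozygous knockout and 4369 in the wild type. Whrn, the scaffold protein whirlin, had 212 bases in the homozygous knockout, 3282 in the heterozygous knockout and 3456 in the wild type. Crtac1, Ipp and Nanos3 had 0 in the homozygous knockout, 2581 to 2842 in the heterozygous knockout and 3171 to 3392 in the wild type. In Cdh4, Trio, Tnrc6a and Whrn the knockout with more bases was near the wild-type level and the other stood apart.

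**Figure D2:**
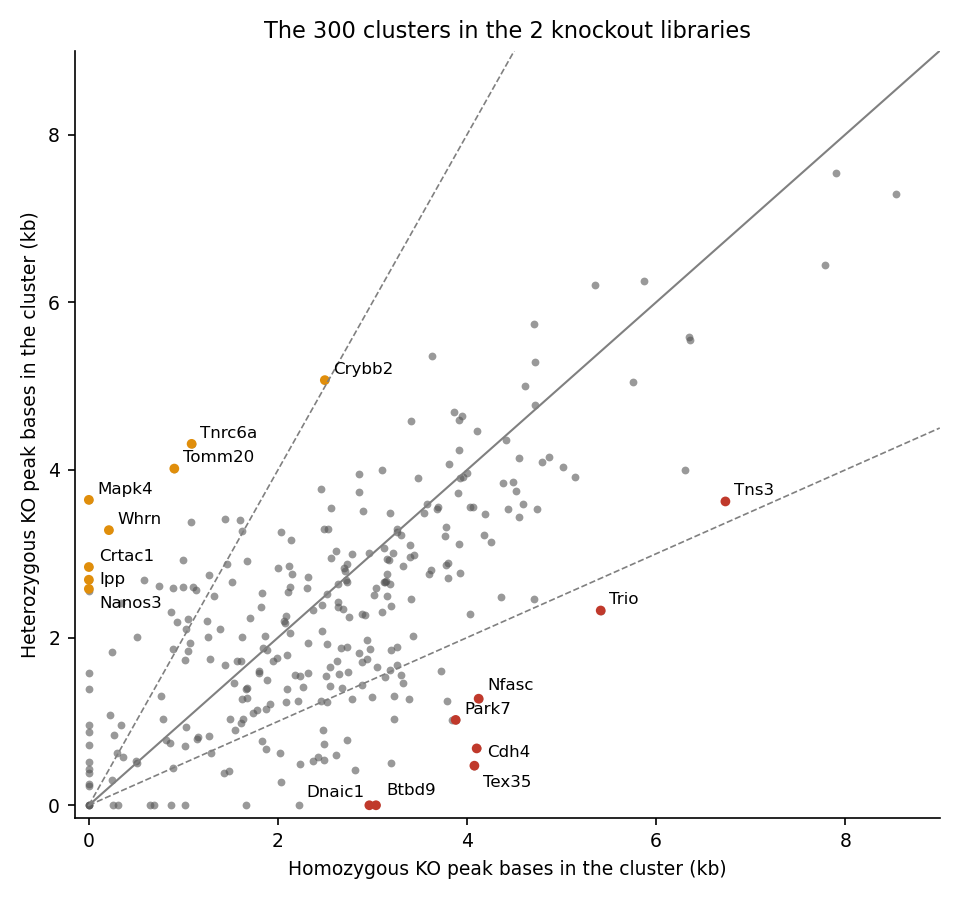
Peak bases (kb) of each of the 300 clusters in the homozygous (x axis) and heterozygous (y axis) knockout library, with 1 point per cluster. The solid line marks equal bases and the dashed lines a 2-fold difference; red and orange points name the 8 clusters with the largest excess in the homozygous and in the heterozygous knockout, from Tex35 with 4078 and 472 bases to Mapk4 with 0 and 3643.

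The positions of the peaks show how the bases were spread. At Chd2 most wild-type peaks had a counterpart in both knockouts, while at Fam76b none of the 8 wild-type peaks had one. At Rbfox3 the 16 wild-type peaks stood against 6 in the homozygous and 4 in the heterozygous knockout. The cluster nearest to Foxa2, at chr2:147951133-147994192, held 4 peaks in the homozygous knockout, 7 in the heterozygous knockout and 8 in the wild type. At Mapk4 the 0 homozygous peaks faced 8 heterozygous and 10 wild-type peaks spread over the whole span, and at Cdh4 there were 7 homozygous, 2 heterozygous and 9 wild-type peaks.

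**Figure D3:**
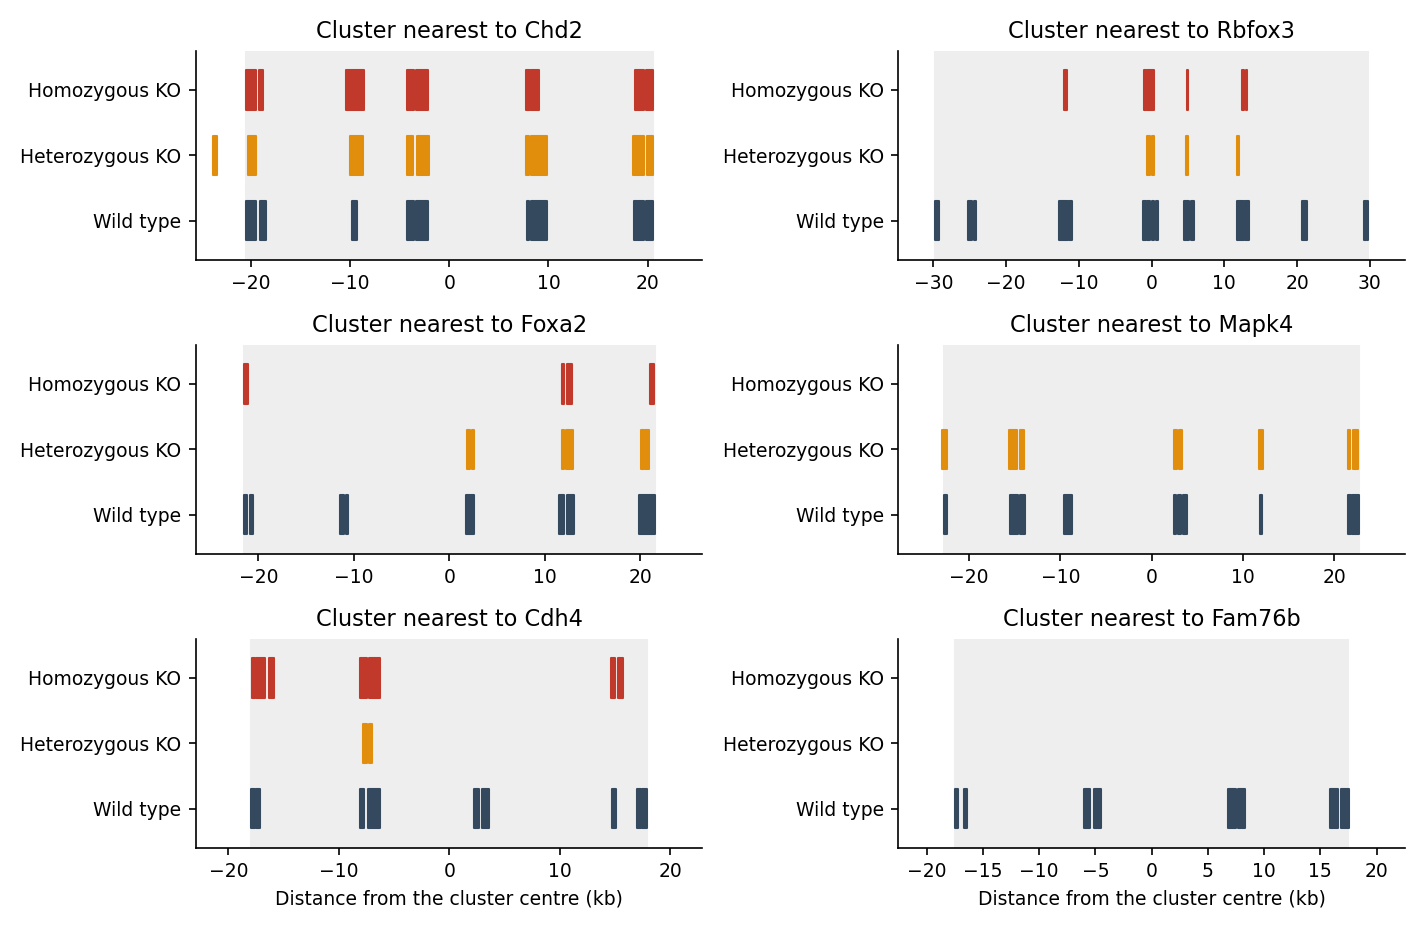
Peak positions in 6 clusters, as distance from the cluster centre (kb), with homozygous knockout peaks at the top, heterozygous knockout peaks in the middle and wild-type peaks at the bottom of each panel. Grey marks the cluster span and every listed peak within 5 kb of it is drawn; the Mapk4 panel has heterozygous peaks and no homozygous peak, and the Cdh4 panel 7 homozygous peaks against 2 heterozygous ones.

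More of the uncovered wild-type bases lay in whole peaks without a counterpart than in peaks that were narrower. Of the 1864 wild-type peaks in the clusters, 1124 overlapped a homozygous peak by at least 1 bp (60.3%, interval 58.04% to 62.53%) and 1107 a heterozygous peak (59.39%, interval 57.12% to 61.63%). Among the other wild-type distal peaks 45.5% and 40.55% did. Over all distal peaks, 53.4% had no homozygous and 58.0% no heterozygous peak. Peaks of 1 cluster are not independent, and the intervals do not allow for that. Of the wild-type bases in the clusters, 52.72% were covered in the homozygous knockout, 16.65% lay uncovered in peaks that a homozygous peak overlapped, and 30.63% lay in peaks without overlap. The heterozygous knockout gave 50.02%, 19.91% and 30.07%. Knockout peaks outside wild-type peaks added bases equal to 8.351% of the wild-type total in the homozygous and 5.649% in the heterozygous knockout, or 13.67% of the homozygous and 10.15% of the heterozygous bases. The spans were drawn around wild-type peaks, which keeps these shares low. Wild-type peaks crossing the edge of a gene-end zone were not among those counted, which can raise them. Where peaks overlapped, their summits were a median of 57.0 bp apart in the homozygous and 53.0 bp in the heterozygous knockout. All wild-type peaks of a cluster were overlapped in 56 clusters by the homozygous and in 45 by the heterozygous list, some of them in 226 and 241, and none in 18 and 14. The same counts are not given for the other clusters, so whether these are high or low is not known.

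**Figure D4:**
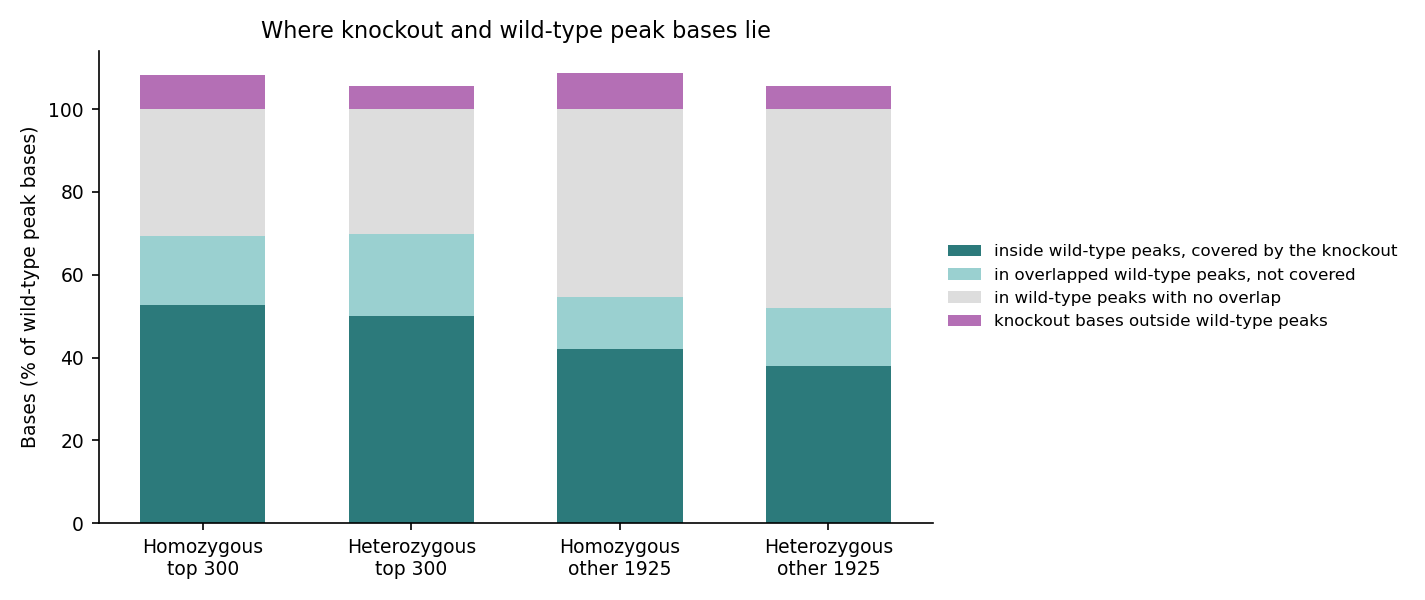
Bases as a percentage of the wild-type peak bases, for the 300 clusters and all others of 3 or more peaks in each knockout. The lower 3 parts of a bar divide the wild-type bases by whether the knockout covered them, and the upper part adds knockout bases outside wild-type peaks; in the 300 clusters 52.72% were covered by the homozygous and 50.02% by the heterozygous knockout.

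Strong and wide wild-type peaks were overlapped more often. With all wild-type distal peaks put in 4 classes of equal size by −log10 q, a homozygous peak overlapped 30.08%, 42.46%, 60.81% and 79.33% of the cluster peaks, lowest class to highest, against 23.84%, 34.56%, 49.04% and 77.12% of the other distal peaks. The heterozygous knockout gave 24.44%, 41.06%, 55.15% and 83.49% in the clusters, against 17.68%, 27.3%, 43.32% and 76.76% outside them. Cluster peaks were thus overlapped more often within each class, and in the highest class the homozygous intervals, 76.24% to 82.18% in the clusters and 75.97% to 78.23% outside, overlapped. In 4 such classes by width the same order held, with 77.17% and 79.5% of the widest cluster peaks overlapped in the homozygous and heterozygous knockout, against 67.91% and 66.32% of the widest other peaks. The widest peak of each cluster, with a median of 1232.0 bp, was overlapped in 81.0% of clusters by the homozygous and in 85.0% by the heterozygous list, against 56.33% and 54.48% of the remaining cluster peaks.

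**Figure D5:**
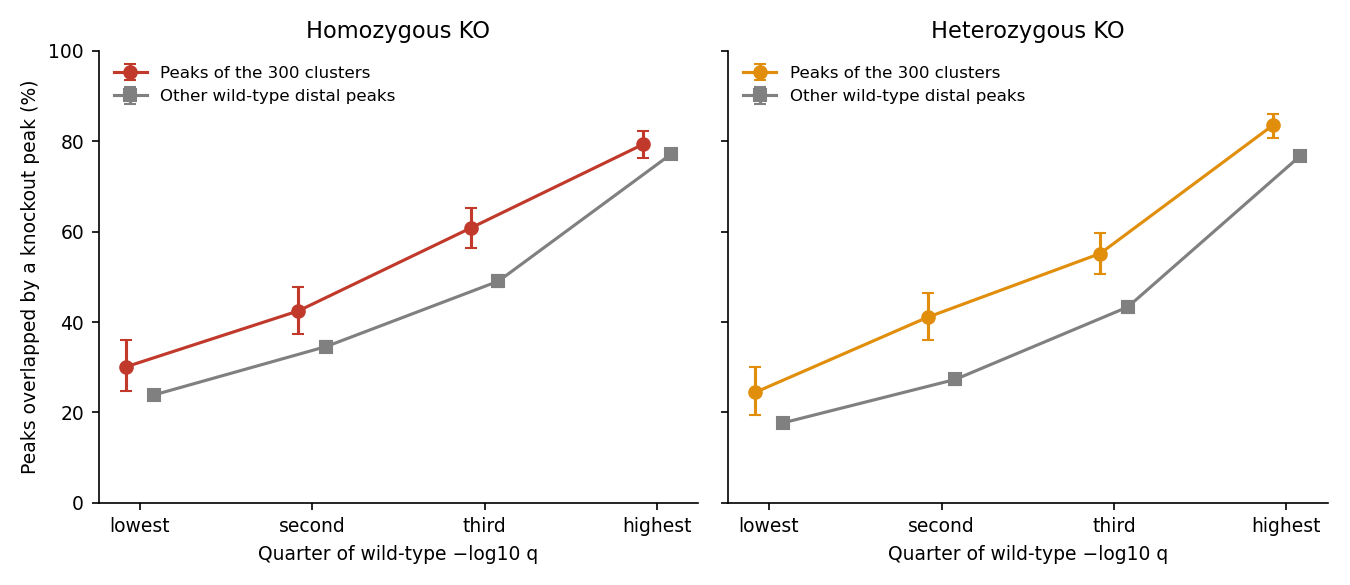
Percentage of wild-type peaks overlapped by a knockout peak, by class of wild-type −log10 q from lowest to highest, for peaks of the 300 clusters (coloured) and other wild-type distal peaks (grey), with exact binomial 95% intervals. Cluster peaks in the highest class reached 79.33% in the homozygous and 83.49% in the heterozygous knockout.

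Lists of genes of the beta cell and its neighbours were looked up among the nearest genes. The lists count clusters and carry no test. Over all 21887 genes, 273 (1.247%) were nearest to a large cluster, so lists of this length would hold few members or none at that share. Of 30 beta cell transcription factors, 5 were nearest to a large cluster. Foxa2, a forkhead pioneer factor of endoderm and islets, had 1622 bases in the homozygous knockout, 2007 in the heterozygous knockout and 4992 in the wild type, in a cluster 48685 bp away. In Esrrg the cluster at chr1:187651241-187672209 held 1028 bases in the homozygous knockout, 934 in the heterozygous knockout and 4103 in the wild type. Mlxipl, which encodes the glucose-responsive factor ChREBP, had 1276 bases in the homozygous knockout, 823 in the heterozygous knockout and 3498 in the wild type. Of the zinc finger genes Myt1 and St18, Myt1 had 1861 bases in the homozygous knockout, 2019 in the heterozygous knockout and 3821 in the wild type. St18 had 996 bases in the homozygous knockout, 2605 in the heterozygous knockout and 3358 in the wild type. Homozygous bases were under 50% of the wild-type bases at 5 of 5 and heterozygous bases at 3 of 5, beside 33% and 42% of the 300 clusters. With 5 clusters from 2 clones, this is a count and shows no tendency of the list.

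Of the 38 secretory genes, 3 were nearest to a large cluster, and none of the 3 was under 50% in either knockout. By the nearest gene end, Iapp, which encodes the granule hormone amylin, was the 4th. Its cluster overlaps Slco1a5, is named for it here, holds the Iapp start, and had 3395 bases in the homozygous knockout, 2962 in the heterozygous knockout and 3923 in the wild type. Chga, which encodes the granule protein chromogranin A, had 4031 bases in the homozygous knockout, 3552 in the heterozygous knockout and 6178 in the wild type, in a cluster at chr12:102511030-102552044. Scg3, a secretogranin that sorts granule cargo, had 2064 bases in the homozygous knockout, 2197 in the heterozygous knockout and 3604 in the wild type. Abcc8, the sulphonylurea receptor subunit of the ATP-sensitive potassium channel, had 2720 bases in the homozygous knockout, 2689 in the heterozygous knockout and 3214 in the wild type, so that the knockouts were 31 bases apart. Among 30 MAPK and immediate early genes, Dusp5, a nuclear phosphatase of ERK, had 4380 bases in the homozygous knockout, 3848 in the heterozygous knockout and 3934 in the wild type. Fosb, an AP-1 subunit, had 2518 bases in the homozygous knockout, 2522 in the heterozygous knockout and 3116 in the wild type. Both stayed above 80% of the wild-type bases in each knockout.

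Of 25 neuronal genes, 5 were nearest to 6 large clusters. Celf4 had 2 of them, with 4723 and 3862 bases in the homozygous knockout, 4780 and 4686 in the heterozygous knockout, and 7631 and 5935 in the wild type. The clusters of the other 4 genes held under 50% of the wild-type bases in both knockouts, which makes 4 of 6 in each, beside 33% and 42% of the 300 clusters. As for the transcription factors, so few clusters show no tendency of the list. Beside Rbfox3 and Ntrk3 they were Ntrk2, which encodes the neurotrophin receptor TrkB, with 259 bases in the homozygous knockout, 0 in the heterozygous knockout and 3138 in the wild type, and Tubb3, a neuronal beta-tubulin, with 305 in the homozygous knockout, 0 in the heterozygous knockout and 3097 in the wild type. Several of these genes are also expressed in beta cell lines. The cell cycle list of 28 gave 1 cluster, nearest to the proliferation marker Mki67 but 502172 bp from it, with 2037 bases in the homozygous knockout, 279 in the heterozygous knockout and 3668 in the wild type. No large cluster lay nearest to any of the 30 genes listed with EGF ligands, ErbB receptors and inhibitors, or to the 26 SWI/SNF subunits. The same held for the 20 receptors of islet hormones and cAMP signalling. It also held for the markers of alpha, delta, PP, epsilon, acinar, duct, mesenchymal, immune and endothelial cells.

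Some genes lay nearest to several large clusters, 20 of them with at least 2. Gse1, a subunit of a histone deacetylase and demethylase complex, had 5 clusters within its locus. They held 2078 to 5146 bases in the homozygous knockout, 2173 to 5290 in the heterozygous knockout and 3843 to 8078 in the wild type. Msi2, the RNA-binding protein Musashi-2, had 4 clusters with 1382 to 3016 bases in the homozygous knockout, 1132 to 2513 in the heterozygous knockout and 3570 to 4590 in the wild type. Bcor, the BCL6 corepressor on the X chromosome, had 3 with 2973 to 4361 bases in the homozygous knockout, 1851 to 2481 in the heterozygous knockout and 3147 to 4992 in the wild type. Zfp608, a zinc finger gene, had 3 with 503 to 1047 bases in the homozygous knockout, 532 to 1839 in the heterozygous knockout and 3059 to 3287 in the wild type. At other genes the clusters stood apart. Those of Cand1, which encodes a regulator of cullin ubiquitin ligases, held 0 and 2514 bases in the homozygous knockout, 1575 and 1234 in the heterozygous knockout and 3538 and 3343 in the wild type. Those of Tomm20 held 4180 and 904 bases in the homozygous knockout, 3219 and 4016 in the heterozygous knockout and 4757 and 3179 in the wild type. Clusters of 1 gene thus did not all stand alike.

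Peaks at the ends of the nearest genes were counted as well. Of the 273 nearest genes, 185 had a peak within 1 kb of an end in the homozygous knockout (67.77%), 187 in the heterozygous knockout (68.5%) and 205 in the wild type (75.09%). These shares were above those over all genes in each library. Of the nearest genes with a wild-type peak there, 89.27% had one in the homozygous and 89.76% in the heterozygous knockout, near the 91.57% and 91.22% over all genes. Where a gene's clusters all held under 50% of the wild-type bases in the homozygous knockout, 50 of 58 such genes kept a homozygous peak at an end (86.21%, interval 74.62% to 93.85%), against 124 of 138 (89.86%, interval 83.56% to 94.34%) where all held more. In the heterozygous knockout the shares were 93.02% (interval 85.43% to 97.4%) and 86.61% (interval 78.87% to 92.31%). In both knockouts the intervals overlapped.

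By chromosome, the homozygous share of the wild-type cluster bases ran from 44.65% over 12 clusters of chromosome 13 to 76.24% over 11 of chromosome 15. The heterozygous share ran from 45.77% over 11 clusters of chromosome 17 to 68.95% over 12 of chromosome 18. On chromosome 17 the homozygous share was 70.65%, and on the X chromosome the 2 knockouts held 74.63% and 51.52%. Outside the clusters, 50.22% of the wild-type distal peaks of chromosome 17 were overlapped in the homozygous and 43.26% in the heterozygous knockout. The sources used here do not state the copy number of the clones, and its part in these values was not tested.

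Applied to each list on its own, the rule gave 1549 clusters in the homozygous knockout, 1356 in the heterozygous knockout and 2225 in the wild type. The top 300 held 1047587 bases in the homozygous list, 961955 in the heterozygous list and 1231188 in the wild-type list, and their lowest members held 2595 bases in the homozygous, 2359 in the heterozygous and 3044 in the wild-type list. Of the homozygous top 300, 122 (40.67%) overlapped a member of the heterozygous top 300, and 121 of the heterozygous (40.33%) overlapped a homozygous one. Of the wild-type top 300, 139 (46.33%) overlapped a homozygous member and 133 (44.33%) a heterozygous one. Membership of the top 300 thus differed between lists for more than 50% of the clusters. The overlap among all clusters of the lists is not given here, so these shares have no background. The cut falls on a smooth slope, and a cluster can leave a top 300 while its peaks are still present in that list.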

How the data were processed

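H3K27ac ChIP-seq of 3 MIN6 clones, 1 library each, was used as deposited peak lists. Per the submitters' processing notes, the data were made with bcl2fastq and MACS2 on mm10; no source used here states versions, aligner, control or calling threshold. The lists are per library and not pooled. For each peak the deposited lists give a position, a score, a fold enrichment (a ratio over the local background), a summit offset, and −log10 p and −log10 q values; the last depend on depth, and both fold and −log10 q were used within a list, apart from 1 alternative with a common −log10 q minimum, which does not equalise depth. The score was not used. No source used here states read totals, so the depth is unknown.

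Peaks on chromosomes 1 to 19 and X were compared with 21887 protein-coding genes of RefSeq on GRCm38.p6, the assembly of mm10, with pandas 2.3.3, numpy 2.4.6 and scipy 1.17.1 under Python 3.11.15, and plotted with matplotlib 3.10.9. Knockout bases are the parts of all knockout peaks inside a cluster span and outside the 2.5 kb gene-end zones. The list that clusters were picked from counts only peaks wholly outside those zones. A peak crossing a zone edge thus adds bases in the other lists alone. The nearest gene is the one with the smallest distance from the span, 0 where they overlap. Stitching was checked with bedtools 2.31.1, where all 2225 clusters were identical, and tested on simulated data. Start windows and their sequences are from RefSeq on the same assembly. Shares have exact binomial (Clopper-Pearson) 95% intervals, which cover counting error only.

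Clusters named are the 10 with most wild-type bases, the 8 lowest and 8 highest in each knockout as a percentage of wild type, the 8 with the largest difference between knockouts each way, the last 2 inside and first 2 outside the cut, and those nearest to a listed gene. Genes with several clusters, Iapp, start windows and mapped clusters were picked with their values known. The lower-ranked clusters of listed beta cell genes are a selection made without a set rule. The members and lists were chosen with earlier results of these data known. Alternatives covered the stitching distance, the gene-end distance, the number and ranking of clusters, the length of the lists, a −log10 q minimum, the bases counted, the overlap and the list used for the choice.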

Additional observations from a re-analysis of the deposited data

How the results depend on the processing

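Homozygous and heterozygous bases as a percentage of wild-type bases (61.07% and 55.67%) turned above 100% where the clusters were picked from the knockout's own list. Picked from the homozygous list, they were 125.7% and 75.21%; from the heterozygous list, 83.71% and 113.4%; from the merged lists, 83.56% and 74.59%. Stitching at 5 kb gave 64.24% and 58.89%, the top 100 clusters 64.8% and 60.88%, lists of equal length 64.37% and 59.47%, and bases inside wild-type peaks only 52.72% and 50.02%. A −log10 q of at least 10 moved the heterozygous value to 51.8%. The share of clusters under 50% of wild type (33% homozygous, 42% heterozygous) became 0.0% and 24.33% from the homozygous list, 15.33% and 0.0% from the heterozygous list, 16% and 24.33% from the merged lists, and 24.0% and 31.0% in the top 100. The homozygous share was 41.33% for bases inside wild-type peaks, and the heterozygous share 34.33% with stitching at 5 kb and 48.67% at the −log10 q minimum. Clusters with at least 2 times the bases of the other knockout (15.33% homozygous higher, 14.33% heterozygous higher) became 36.33% and 0.0% from the homozygous list and 0.0% and 25.33% from the heterozygous list, where the choice itself fixes the direction. The pair was 21.67% and 13.67% at the −log10 q minimum, 17.0% and 8.667% with stitching at 25 kb, and 17.0% and 10.0% from the merged lists. Under the remaining alternatives both values of this pair stayed inside their counting intervals. Other causes were not tested. Of 72 values under 12 alternatives, 39 stayed inside the counting interval of the reported value, which for bases took the member peaks as trials, 31 moved beyond it and 2 turned direction. Without 7 clusters in multi-copy sequence, an alternative chosen after seeing the data, the first values were 60.61% and 55.24%. Requiring overlap of at least 50% of a wild-type peak, 52.41% of cluster peaks were overlapped in the homozygous and 49.68% in the heterozygous knockout. No paired analysis was possible because each genotype had 1 library. Read depth, unknown here, limits which weak peaks each list could hold.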

Other observations

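Several listed beta cell genes were nearest to clusters ranked below the 300 largest, with 1341 to 2891 wild-type bases. At any rank, 13 of the listed transcription factors were nearest to 15 clusters and 16 of the secretory genes to 25. The share of all genes nearest to a cluster of any rank is not given here, so these counts have no background. Of all 2225 clusters, 23.2% held no homozygous base and 26.3% no heterozygous base. Those shown are a selection from these lists made without a set rule, with each cluster named by its nearest gene. Their values are given as a description and show no tendency of the lists. Pax6, an islet transcription factor, had clusters with 758 and 1449 bases in the homozygous knockout, 1226 and 539 in the heterozygous knockout, and 2126 and 1525 in the wild type. Rfx6, needed for islet development, had 1601 bases in the homozygous knockout, 1723 in the heterozygous knockout and 1879 in the wild type. Glis3 had 727 in the homozygous knockout, 0 in the heterozygous knockout and 1991 in the wild type, and Prox1 had 0 in the homozygous knockout, 0 in the heterozygous knockout and 1362 in the wild type. Of the secretory genes, Pcsk2, a prohormone convertase, had 2491 and 1212 bases in the homozygous knockout, 2590 and 934 in the heterozygous knockout, and 2706 and 1463 in the wild type, and Snap25, a fusion protein of exocytosis, had 2451 in the homozygous knockout, 2414 in the heterozygous knockout and 2891 in the wild type. Slc30a8, the granule zinc transporter, had 0 and 545 in the homozygous knockout, 250 and 522 in the heterozygous knockout, and 1714 and 1341 in the wild type.

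The EGF and ErbB list, which had no member among the 300 largest, had 5 clusters lower in the ranking. This count has no background either. Clusters at 0 bases stand beside the 23.2% of all clusters without a homozygous base and the 26.3% without a heterozygous base. Hbegf, an EGF receptor ligand, had 1310 bases in the homozygous knockout, 1459 in the heterozygous knockout and 2137 in the wild type. Ptpn11 is on the list, though its product, the phosphatase SHP2, is neither a ligand, a receptor nor an inhibitor. Its cluster had 1678 in the homozygous knockout, 0 in the heterozygous knockout and 2237 in the wild type. Erbb3 had 499 in the homozygous knockout, 372 in the heterozygous knockout and 1070 in the wild type. Tgfa, another ligand of the EGF receptor, had 0 in the homozygous knockout, 0 in the heterozygous knockout and 2053 in the wild type, and Lrig1, an inhibitor of ErbB receptors, had 0 in the homozygous knockout, 0 in the heterozygous knockout and 2123 in the wild type.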
